A study of Mus musculus with 56 samples.

Results

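RNA was measured for 8 mouse genes in sorted fetus- and graft-specific CD8 T cells (T_FGS), and they were 8 of the 55359 genes in the count table. *Klrk1*, *Klrd1*, *Klrc1*, *Klrc2*, *Klrg1*, *Klrb1c* and *Klre1* encode lectin-like receptors first known from natural killer (NK) cells, and *Hcst* encodes a signalling adaptor for the *Klrk1* product. They were taken by matching each Ensembl identifier of the table to its mouse symbol. All 7 receptor genes lie on chromosome 6 of GRCm39, and 6 of them, all but *Klrg1*, lie between 128755448 and 129655936. *Klrg1* spans 122246981 to 122259914 on the same chromosome, and *Hcst* spans 30117135 to 30119297 on chromosome 7. All 8 are protein-coding genes in the GENCODE annotation.

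T_FGS were CD8 T cells that bound OVA:Kb tetramers, sorted from the spleen and pooled lymph nodes of individual female C57BL/6 (B6) mice that were 8 to 12 weeks old when bought. Naive mice were unmated and without a graft (n = 3). Sensitized mice were unmated and had received 2W-OVA.BALB/c skin at least 30 days earlier (n = 4), a graft that B6 mice reject. N+P mice had no graft and were taken 0 to 3 days after a semi-allogeneic pregnancy by 2W-OVA.BALB/c males, the strain of the skin graft. Their cells were sorted as C1 (PD1-, n = 3) or C5 (PD1+CD73+, n = 3). S+P mice had the graft and then the pregnancy, and were sorted as C4 (PD1-, n = 6), C5 (PD1+CD73+, n = 6) or C7 (PD1+CD73-, n = 5). The cells were endogenous T cells of each mouse, and each library came from 200 cells. The sort also kept CD90.2+ CD4- cells and used a dump channel, and the antibodies that the study lists in that dye include those to NK1.1, the product of *Klrb1c*, and to CD49b, the product of *Itga2*. The sources used here do not spell out the dump antibodies of this sort, and if NK1.1 was among them the level of *Klrb1c* describes cells gated against its protein.

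NKG2D, the product of *Klrk1*, binds stress-induced ligands related to MHC class I and signals through DAP10, the product of *Hcst*. CD94, the product of *Klrd1*, lacks a signalling tail of its own and pairs with NKG2A (*Klrc1*), which inhibits, or NKG2C (*Klrc2*), which activates, and these pairs read the non-classical class I molecule Qa-1 (*H2-T23*). KLRG1 is an inhibitory receptor for cadherins and is widely used to mark effector CD8 T cells, KLRE1 pairs with KLRI chains, and NK1.1 is the classical NK cell marker of B6 mice. Antigen-experienced CD8 T cells are known to acquire several of these receptors.

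The 56 libraries held 6636532 to 32625243 counts each and gave 30 samples after technical libraries of a mouse and subset had been summed. 7 samples rested on 1 library. A column with the same counts in Naive replicate 1 and S+P C4 replicate 1 was left out of both, and nearly identical libraries of S+P C7 replicates 1 and 2 were averaged as S+P C7 replicate 1. 3 samples had under 9000 detected genes, namely S+P C7 replicate 3 (7879) and, in S+P C4, replicates 2 (8002) and 3 (7436). *Cd8a* ranged from 567 to 1580 CPM (the count scaled to library size) over all samples and *Cd3e* from 281 to 1141 CPM. *Cd4* was at 0 in 4 of the 7 groups and reached 3.71 CPM at most.

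S+P C7 replicate 3 stood apart in the genes of this receptor system. It held 482 CPM of *Tyrobp*, which encodes the adaptor DAP12, 103 CPM of the NK receptor gene *Ncr1* and 418 CPM of the Ly49 gene *Klra7*. The summed level of 8 NK cell markers was 929 CPM in this sample and 18.7 to 45.9 CPM in the other 4 S+P C7 samples, and it did not pass 33.9 CPM in any sample of the other groups. The sample held *Cd8a* at 1342 CPM, the highest of S+P C7, but *Cd3e* at 330 CPM and *Cd8b1* at 995 CPM, the lowest of it. The other 4 samples held 726 to 1141 CPM of *Cd3e* and 1513 to 2474 CPM of *Cd8b1*. In replicate 3 *Klrd1* was at 2.24 CPM, *Klrc1* at 0.0934 CPM (2 counts) and *Klrg1* at 0.0467 CPM (1 count). *Itga2* was at 0 in it. S+P C7 means and counts of calls below are therefore also given without it.

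**Figure D1:**
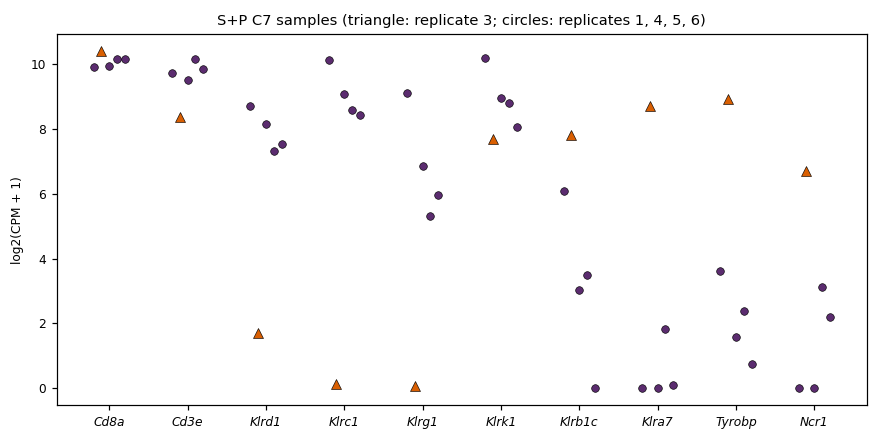
Levels of 10 genes in the 5 S+P C7 samples on a log scale, log2(CPM + 1), with 1 point per sample and replicate 3 as a triangle. Replicate 3 is the highest of the 5 samples in *Cd8a*, at 1342 CPM, and the lowest in *Cd3e*, at 330 CPM. It is far below the other 4 in *Klrd1*, *Klrc1* and *Klrg1*, and far above them in *Klra7*, *Tyrobp* and *Ncr1*.

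The promoters of 4 members are shown because *Klrk1* and *Klrc1* followed each other most closely over the samples, *Klrc2* is the close paralogue of *Klrc1*, and *Klrd1* encodes the partner of both NKG2 chains. Each stretch was read from GRCm39 and runs 5′ to 3′ on the gene's strand, from 250 bases before the start of the canonical transcript through its first 30 bases. Capitals mark TGTGGT, a letter string bound by RUNX factors, or its reverse complement ACCACA. The windows are chr6:129599706-129599985 for *Klrk1* (minus strand), chr6:129568427-129568706 for *Klrd1* (plus strand), chr6:129655907-129656186 for *Klrc1* (minus strand) and chr6:129637490-129637769 for *Klrc2* (minus strand).
Klrk1: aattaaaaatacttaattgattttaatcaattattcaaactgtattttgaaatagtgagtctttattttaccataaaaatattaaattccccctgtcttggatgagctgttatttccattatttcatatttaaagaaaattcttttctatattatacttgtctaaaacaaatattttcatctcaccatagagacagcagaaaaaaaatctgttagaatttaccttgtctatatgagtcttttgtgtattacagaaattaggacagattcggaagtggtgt
Klrd1: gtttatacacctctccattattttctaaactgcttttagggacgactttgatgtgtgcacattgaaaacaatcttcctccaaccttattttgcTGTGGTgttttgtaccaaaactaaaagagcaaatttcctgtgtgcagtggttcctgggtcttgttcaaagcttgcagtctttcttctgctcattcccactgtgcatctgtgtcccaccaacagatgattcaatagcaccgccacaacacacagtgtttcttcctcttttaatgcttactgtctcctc
Klrc1: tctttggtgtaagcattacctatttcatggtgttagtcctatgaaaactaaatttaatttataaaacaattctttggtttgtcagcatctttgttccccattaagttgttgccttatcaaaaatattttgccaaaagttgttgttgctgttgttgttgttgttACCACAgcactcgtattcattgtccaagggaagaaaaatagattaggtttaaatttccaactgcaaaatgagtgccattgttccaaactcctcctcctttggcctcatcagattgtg
Klrc2: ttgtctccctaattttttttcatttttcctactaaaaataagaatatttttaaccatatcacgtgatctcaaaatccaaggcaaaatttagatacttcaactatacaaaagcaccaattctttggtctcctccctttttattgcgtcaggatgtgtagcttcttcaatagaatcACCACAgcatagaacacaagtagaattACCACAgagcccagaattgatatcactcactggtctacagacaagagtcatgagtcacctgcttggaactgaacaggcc
*Klrk1* had no match in its window, *Klrd1* and *Klrc1* had 1 each, and *Klrc2* had 2, none of which overlapped. *Klrb1c* and *Klre1* also had 1 each, so that 5 of the 8 windows held the string, beside 14.5% of the 21770 windows of the same length at protein-coding genes. The T-box string GGTGTGA, in 3.65% of all windows, and the ETS string CCGGAAGT, in 4.01%, were in none of the 8 on either strand. A match is a letter match only, and *Klrk1* and *Klrc1*, the pair closest over the samples, differed in it.

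The effect of the rejected graft in unmated mice was read from Sensitized against Naive. *Klrk1* and *Klrc1* rose, by 6.10 and 8.49 on the log2 scale, and they were 2 of 8 members past both thresholds (adjusted p under 0.1 and a log2 fold change beyond 0.9 in edgeR), beside 0.153% of the 19657 genes tested. The fold changes of all 8 members were above 0, with a median of 4.79 beside 0.04 over all genes. 7 of the 8 had an unadjusted p under 0.05, beside 7.82% of all genes, and DESeq2 called 6 of 8 beside 5.87%. The same question in PD1- cells after pregnancy, S+P C4 against N+P C1, found *Klrk1* alone past both thresholds, 1 of 8 beside 0.061% of all genes, with a median over the members of 5.11 beside -0.04. Again 7 of 8 had an unadjusted p under 0.05, beside 9.23%, and DESeq2 called 7 of 8 beside 5.67%. In PD1+CD73+ cells, S+P C5 against N+P C5, 0 of 8 passed in edgeR, beside 0% of all genes, 4 of 8 had an unadjusted p under 0.05 beside 5.88%, and DESeq2 called 3 of 8 beside 4.12%. These 3 comparisons shared no sample, but as far as the numbering shows C4 and C5 of S+P came from the same mice, as did C1 and C5 of N+P. All 3 came from 1 fit with 1 estimate of the spread.

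**Figure D2:**
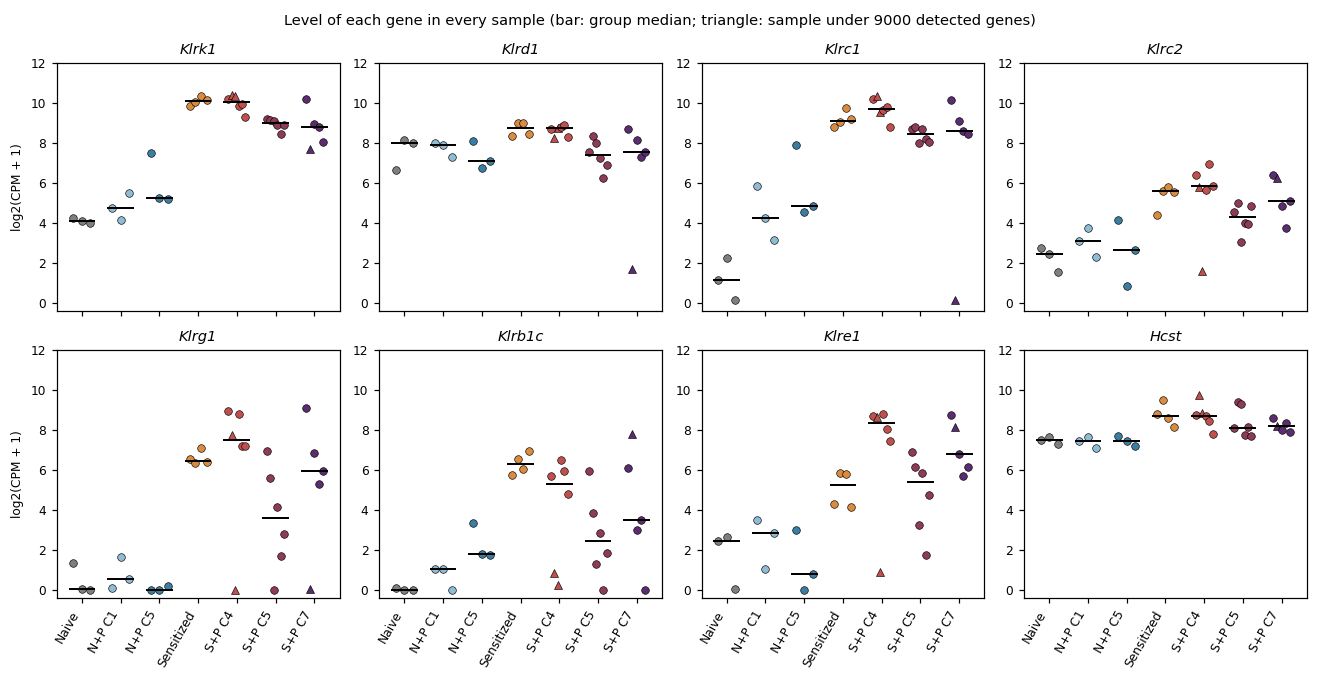
Levels of the 8 genes in all 30 samples, as log2(CPM + 1), by sorted group. Each point is a sample, the bar is the group median and triangles are the 3 samples under 9000 detected genes. All *Klrk1* points of the 4 groups from grafted mice lie above all those of ungrafted mice, while *Klrd1* overlaps between them.

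*Klrk1* was at 17.7, 16.0 and 14.8 CPM in the 3 Naive samples and at 915, 1044, 1312 and 1152 CPM in the 4 Sensitized samples. The groups were far apart, with a log2 fold change of 6.10 (SE 0.63, adjusted p = 1.17e-06 by edgeR). In N+P C1 it was at 26.0, 16.8 and 44.5 CPM, and in S+P C4 it ran from 619 to 1368 CPM with a median of 1072 CPM. That difference was 5.19 (SE 0.59, adjusted p = 1.14e-05 by edgeR). Without S+P C4 replicates 2 and 3 the S+P C4 mean was 920 CPM in place of 1061 CPM. In N+P C5 replicate 1 stood at 177 CPM above replicates 2 and 3 at 37.3 and 35.1 CPM, and S+P C5 ran from 349 to 597 CPM with a median of 517 CPM. S+P C5 and N+P C5 did not overlap, but the difference of 2.6 (SE 0.51) had an adjusted p of 0.135 in edgeR. Without N+P C5 replicate 1 it was 3.80 with an adjusted p of 0.00459.

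*Hcst*, which encodes the partner adaptor of NKG2D, was already well above the floor in T_FGS of ungrafted mice. It was at 181, 203 and 161 CPM in Naive, and the means of N+P C1 and N+P C5 were 172 ± 32.5 and 178 ± 29.0 CPM (SD, n = 3 each). Sensitized samples held 451, 724, 390 and 288 CPM, all above the Naive samples. The log2 fold change was 1.35 (SE 0.44) and missed the threshold with an adjusted p of 0.627 in edgeR. In S+P C4 *Hcst* ran from 223 to 882 CPM around a median of 426 CPM, 1.42 (SE 0.42) above N+P C1 with an adjusted p of 0.443. Per kb of annotated exon, the Naive mean of *Hcst* was 245 CPM per kb and that of *Klrk1* 2.25 CPM per kb. S+P C5 held 211 to 672 CPM of *Hcst* and S+P C7 240 to 395 CPM, and the size of its log2 difference between grafted and ungrafted mice was smaller than that of *Klrk1* in all 3 comparisons.

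The CD94 chain and its partners differed from each other. *Klrd1* was at 97.7, 285 and 251 CPM in Naive and at 323, 510, 503 and 343 CPM in Sensitized samples. The groups did not overlap, with a log2 difference of 0.99 (SE 0.71, adjusted p = 0.883 by edgeR). N+P C1 held 253, 235 and 158 CPM and S+P C4 301 to 472 CPM, with a median of 423 CPM, a difference of 0.88 (SE 0.67). In C5 cells the means were 171 ± 86.8 CPM in N+P (SD, n = 3) and 185 ± 92.7 CPM in S+P (SD, n = 6), and these overlapped. *Klrd1* RNA was thus found in every sample of ungrafted mice.

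*Klrc1* was close to absent in Naive cells, at 1.19, 3.71 and 0.113 CPM, the last from 3 counts. It was at 441, 522, 861 and 590 CPM in Sensitized samples, a log2 fold change of 8.49 (SE 1.52, adjusted p = 0.00547 by edgeR). Without Naive replicate 1 the fold change was 8.30 and the adjusted p 0.118. N+P C1 stood between, at 56.7, 18.0 and 7.70 CPM, and S+P C4 ran from 452 to 1326 CPM with a median of 842 CPM. These groups did not overlap, with a difference of 5.03 (SE 1.26) and an adjusted p of 0.271 in edgeR. N+P C5 held 236, 22.2 and 27.3 CPM and S+P C5 256 to 438 CPM, so that replicate 1 of N+P C5 came near the lowest S+P C5 sample. The log2 difference was 1.86 (SE 1.05, adjusted p = 0.882 by edgeR).

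*Klrc2*, the activating counterpart of *Klrc1*, was at 5.76, 4.44 and 1.93 CPM in Naive and at 19.96, 48.0, 53.8 and 46.2 CPM in Sensitized samples, a difference of 3.38 (SE 1.1) with an adjusted p of 0.627 in edgeR. S+P C5 held 7.32 to 30.6 CPM and S+P C7 12.2 to 81.7 CPM, so that both overlapped the Sensitized samples. Levels of the pair can be set side by side only per length of RNA. Per kb of annotated exon, *Klrc1* made up 97.7% ± 0.66 of the sum of both genes in Sensitized samples (SD, n = 4) and 41.2% ± 28.3 in Naive samples (SD, n = 3). The share lay between 95.5% and 99.9% in all S+P C4 samples and between 96.5% and 99.0% in all S+P C5 samples. In S+P C7 it was at 96.8% or above except in replicate 3, where it was 0.359%. With the length of the canonical transcript, which for *Klrc2* is 717 bases against 5812 bases of all annotated exons, the Sensitized share was 84.0% and the Naive share 10.7%. Naive had the lowest mean share with both lengths. The genes are near-identical copies in part and reads mapping to several places had been removed, so the split between them is uncertain.

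**Figure D3:**
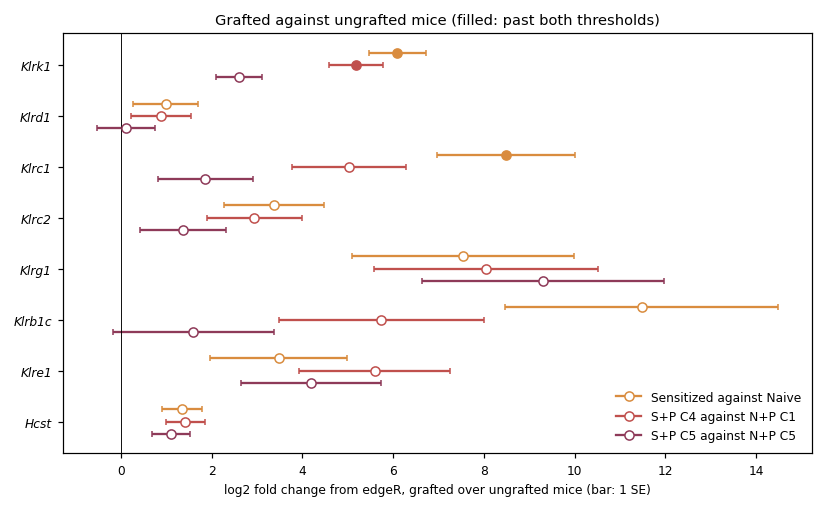
Log2 fold changes of the 8 genes from edgeR in the 3 comparisons of grafted with ungrafted mice, with bars of 1 SE and filled points for genes past both thresholds. *Klrk1* is filled in Sensitized against Naive and in S+P C4 against N+P C1, *Klrc1* in the former only, and the bars of *Klrg1* and *Klrb1c* are the widest.

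*Klrg1*, *Klre1* and *Klrb1c* had few counts or none in some samples and were well above the floor in others. *Klrg1* was at 1.56, 0.0331 and 0 CPM in Naive and at 92.2, 81.6, 137 and 83.4 CPM in Sensitized samples, a fitted difference of 7.54 (SE 2.44, adjusted p = 0.627 by edgeR). No sample of N+P C1 or N+P C5 passed 2.19 CPM. 0 counts in 2 of the 3 N+P C5 samples allow up to 0.0629 and 0.0876 CPM there, for counting error only. In S+P C4 5 of 6 samples lay between 145 and 500 CPM, and replicate 3, one of the samples with few detected genes, had 0 counts, which allow up to 0.297 CPM.

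*Klre1* was at 4.53, 5.40 and 0.0378 CPM in Naive and at 19.1, 56.9, 55.3 and 17.1 CPM in Sensitized samples. S+P C4 went further, with 5 of 6 samples between 175 and 455 CPM and replicate 3 at 0.893 CPM. S+P C4 against Sensitized was 2.95 on the log2 scale (SE 1.26, unadjusted p = 0.0260) with an adjusted p of 0.329 in edgeR. In S+P C7 it was at 50.6 to 431 CPM and in S+P C5 at 2.34 to 119.2 CPM. *Klri2*, which encodes a partner chain of KLRE1 and was chosen after its values had been seen, was at 0 counts in 3 of 4 Sensitized samples and at 10.4 to 124 CPM in 5 of 6 S+P C4 samples.

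*Klrb1c* had 2, 0 and 0 counts in the 3 Naive samples. It was at 53.3, 94.2, 65.4 and 126 CPM in Sensitized samples. The pooled counts gave a Sensitized to Naive ratio of 3259 with an exact 95% counting interval of 902 to 26912, and the fitted difference had an adjusted p of 0.255 in edgeR. N+P C1 held 1.11, 1.05 and 0 CPM and N+P C5 9.42, 2.45 and 2.42 CPM. Nearly all of these counts came from technical library B. Libraries A and B held 10 and 439, 0 and 84, and 1 and 77 counts in N+P C5 replicates 1, 2 and 3. In N+P C1 replicates 1 and 2 they held 0 and 37, and 0 and 30 counts. In S+P C4 it ran from 0.199 to 90.7 CPM around a median of 39.2 CPM, with the 2 lowest values in replicates 2 and 3. *Klrb1c* shares exon bases on its strand with *Gm44511*, which had no count in any library, so the count of *Klrb1c* is uncertain there.

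Pregnancy was compared with the unmated state of the same graft history. The labels of Naive and Sensitized name no PD1 or CD73 gate. The gate and the pregnancy therefore cannot be told apart in these comparisons, in naive or in sensitized mice. S+P mice were mated at least 30 days after the graft, so time since the graft may differ from Sensitized mice as well. In naive mice, N+P C1 against Naive called 0 of 8 members beside 0% of all genes in edgeR, 1 had an unadjusted p under 0.05 beside 3.23%, and DESeq2 called 1, *Klrc1*, beside 4.06%. N+P C5 against Naive called 0 of 8 beside 0.0407%, with 3 at an unadjusted p under 0.05 beside 5.33%, and DESeq2 called 3, *Klrk1*, *Klrc1* and *Klrb1c*, beside 5.44%. Both comparisons share the Naive samples. The 3 N+P C5 samples of *Klrk1* lay above all Naive samples, with a log2 difference of 2.36 (SE 0.54) and an adjusted p of 0.140, and those of *Klrc1* did as well, with 5.82 (SE 1.36) and 0.178. Without N+P C5 replicate 1 these differences were 1.16 for *Klrk1* and 3.88 for *Klrc1*, each with an adjusted p of 0.998 in edgeR. *Klrd1* and *Hcst* were within 0.31 of Naive on the log2 scale in both subsets, with SEs of 0.74 and 0.46.

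In sensitized mice, S+P C4 against Sensitized called 0 of 8 beside 0.00509% of all genes, S+P C5 against Sensitized 0 of 8 beside 0.0712% and S+P C7 against Sensitized 0 of 8 beside 0.0305%, all in edgeR. The counts at an unadjusted p under 0.05 were 1, 2 and 1 of 8, beside 12.7%, 13% and 10.2% of all genes. DESeq2 called 0 of 8 in each, beside 4.97%, 5.33% and 4.06%, and without S+P C7 replicate 3 edgeR again called 0 in S+P C7 against Sensitized. The 3 comparisons share the Sensitized samples. *Klrk1* in S+P C4 was level with Sensitized (log2 difference -0.06, SE 0.40), and in S+P C5 every sample was below every Sensitized sample (-1.14, SE 0.40, adjusted p = 0.277). With only the Sensitized and S+P C5 samples in the fit its adjusted p was 0.0227. In S+P C7 *Klrk1* was at 1169, 207, 491, 448 and 267 CPM in replicates 1, 3, 4, 5 and 6. The mean was 516 ± 384 CPM (SD, n = 5) and 594 ± 396 CPM without replicate 3 (SD, n = 4).

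*Klrc1* in S+P C5 also lay below the Sensitized samples, but only just, with 438 CPM at most against 441 CPM at least. The log2 difference was -0.81 (SE 0.86, unadjusted p = 0.356 by edgeR). *Klrd1* in S+P C5 ran from 75.9 to 327 CPM and its highest sample passed the lowest Sensitized sample, with a difference of -1.18 (SE 0.58, adjusted p = 0.383). *Klrg1* in S+P C5 spread from 0 to 126 CPM around a median of 11.3 CPM, so that 5 of the 6 samples lay below all Sensitized samples and replicate 1 among them. S+P C7 held 417, 2.24, 281, 157 and 186 CPM of *Klrd1*, and its mean rose from 208 to 260 CPM without replicate 3. Without replicate 3 the mean of *Klrc1* in S+P C7 went from 479 to 599 CPM and that of *Klrb1c* from 62.1 to 21.2 CPM. The mean of *Klrg1* went from 153 to 192 CPM, that of *Klre1* from 190.4 to 166 CPM, that of *Klrc2* from 46.1 to 38.7 CPM and that of *Hcst* from 305 to 306 CPM. *Klrb1c* reached 225 CPM in replicate 3, above every other sample of the series. In bulk RNA, fewer cells with a transcript and less transcript per cell cannot be told apart.

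The subsets of the same mice were compared next, and the main fit took them as separate samples without the pairing. N+P C5 against N+P C1 called 0 of 8 members beside 0.00509% of all genes, S+P C5 against S+P C4 0 of 8 beside 0.0305%, S+P C7 against S+P C4 0 of 8 beside 0.00509% and S+P C7 against S+P C5 0 of 8 beside 0%, all in edgeR. The counts at an unadjusted p under 0.05 were 1, 5, 1 and 0 of 8, beside 4.31%, 13.3%, 15.9% and 12.7% of all genes. DESeq2 called 0 of 8 in each, beside 4.53%, 5.25%, 4.91% and 3%, and without S+P C7 replicate 3 edgeR again called 0 in both comparisons with S+P C7. The fitted log2 fold changes of all 8 members were below 0 in S+P C5 against S+P C4, with a median of -1.40 beside 0.11 over all genes. *Klrk1* and *Klrc1* had log2 differences of -1.08 (SE 0.37, adjusted p = 0.297) and -1.38 (SE 0.79, adjusted p = 0.502). Their ranges came close without overlapping. *Klrk1* was at 597 CPM at most in C5 and 619 CPM at least in C4, and *Klrc1* at 438 and 452 CPM. *Klre1* was lower by -2.59 (SE 1.05, adjusted p = 0.297) and *Klrg1* by -2.89 (SE 1.40, adjusted p = 0.366).

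Samples with the same replicate number were taken to be subsets of 1 mouse. *Klrk1* and *Klrc1* were higher in C4 than in C5 in 6 of 6 mice and higher in C4 than in C7 in 5 of 5, with *Klrk1* of mouse 1 at 1170 and 1169 CPM in C4 and C7. *Klre1* and *Klrg1* were higher in C7 than in C5 in 5 of 5 mice, though the adjusted p of these differences was 0.478 and 0.690 in edgeR. Without mouse 3, whose C7 sample stood apart, the tallies with C7 were 4 of 4. For *Klrg1* in mouse 3 this rested on 1 count against 0. Some other tallies were split. *Klrb1c* was higher in C4 than in C5 in 3 of 6 mice and *Klrk1* higher in C7 than in C5 in 3 of 5. *Klrg1* and *Klre1* were higher in C4 than in C7 in 3 of 5 mice each. Mouse 3 had 0, 0 and 1 counts of *Klrg1* in C4, C5 and C7, so the gene was at or under the floor in all its subsets, while mouse 1 had the highest *Klrg1* of each subset at 500, 126 and 552 CPM. In mice 4, 5 and 6 the order was C4, C7 and C5 in each, with 451, 115 and 16.6 CPM in mouse 4, 148, 38.5 and 2.24 CPM in mouse 5 and 145, 61.8 and 6.03 CPM in mouse 6. S+P C7 replicate 1 is the average with the near-identical library labelled replicate 2, so the number of that mouse is uncertain.

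**Figure D4:**
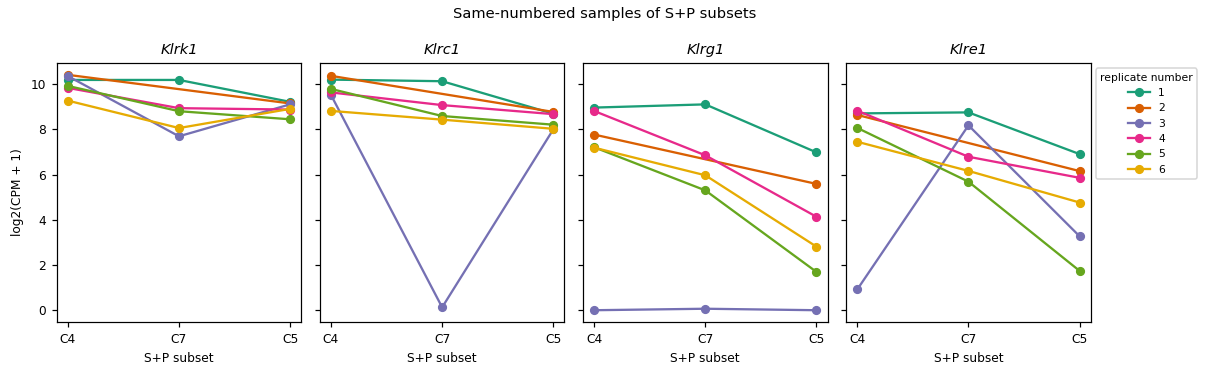
Levels of 4 genes in the S+P subsets C4, C7 and C5, as log2(CPM + 1), with a line for each replicate number and no C7 point for number 2. *Klrk1* and *Klrc1* are lower in C5 than in C4 in all 6, *Klrg1* of number 3 stays at the bottom, and *Klrc1* of number 3 drops to 0.0934 CPM in C7.

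Whether the change from unmated mice to C5 cells after pregnancy differed between graft histories was tested as (S+P C5 - Sensitized) - (N+P C5 - Naive). Each bracket holds the PD1+CD73+ gate as well as the pregnancy, and these cannot be told apart. In PD1- cells *Klrk1* differed by 0.85 between N+P C1 and Naive and by -0.06 between S+P C4 and Sensitized, on the log2 scale. *Klrk1* passed, 1 of 8 members beside 0.0254% of all genes in edgeR, 3 of 8 had an unadjusted p under 0.05 beside 6.42%, and DESeq2 called 3 of 8 beside 4.69%. It was 2.36 higher in N+P C5 than in Naive and changed by -1.14 from Sensitized to S+P C5, and the difference of these was -3.50 (SE 0.67, adjusted p = 0.0529 by edgeR). Leaving out 1 sample at a time moved it from -3.88 to -2.30, and the call was lost on leaving out any Naive sample, N+P C5 replicate 1 (-2.30, adjusted p = 0.947), Sensitized replicate 3 or 4, or S+P C5 replicate 3, 4, 5 or 6. N+P C5 replicate 1, with 177 CPM, was the sample that moved the value most. *Klrc1* showed a difference of -6.63 (SE 1.55) with an adjusted p of 0.316.

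The rest of the pathway was followed in lists. Over all genes, 3.23% to 15.9% had an unadjusted p under 0.05 in edgeR and DESeq2 called 3% to 5.87%, depending on the comparison. Of 23 other lectin-like genes of the NK gene complex and their kin, 18 were tested and 0 passed in any of the 13 comparisons in edgeR. Their median log2 difference was -0.10 in Sensitized against Naive, 1.72 in S+P C4 against N+P C1 and 1.13 in S+P C5 against N+P C5. Over all comparisons it ran from -2.59 in N+P C5 against Naive to 2.96 in S+P C7 against Sensitized. In S+P C5 against S+P C4 it was -1.79. At an unadjusted p under 0.05 the counts lay between 0 and 7, and DESeq2 called 1 to 5 in each comparison, 5 of them in S+P C4 against Sensitized (*Clec2d*, *Klra10*, *Klra5*, *Klra6* and *Klri2*). Of 16 adaptors and signalling genes 15 were tested and 0 passed in any comparison, with 0 to 3 at an unadjusted p under 0.05, and DESeq2 called 1, *Pik3cd*, in S+P C5 against S+P C4. Their median was 0.16 in Sensitized against Naive. Of 16 ligand genes 12 were in the table, 8 were tested and 0 passed, with 0 to 2 at an unadjusted p under 0.05, and DESeq2 called *Clec2d* in 1 comparison and *Cdh1* in 2. *H2-T23*, which encodes the ligand of the CD94 pairs, was at 301 ± 79.0 CPM in Naive (SD, n = 3) and 369 ± 155 CPM in Sensitized samples (SD, n = 4). *Tyrobp*, the adaptor that many activating NK receptors need, stayed at or under 20.6 CPM in every sample but S+P C7 replicate 3. *Ncr1* was at 0 counts in all Naive, N+P C5 and S+P C5 samples.

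Among the marker lists for other cells, only *Trgc2*, a constant gene of the T cell receptor gamma locus, passed in any comparison in edgeR. All 8 genes of the NK cell list were higher in S+P C7 than in Sensitized, S+P C4 and S+P C5. Their median log2 differences were 4.48, 5.23 and 5.32. In edgeR 2, 5 and 4 of the 8 had an unadjusted p under 0.05, beside 10.2%, 15.9% and 12.7% of all genes. S+P C7 replicate 3 is in these fits, and *Itga2*, at 0 in it, was at 2.54 to 12.2 CPM in the other 4. DESeq2 called 0 to 2 genes of each list in each comparison, with *Ncam1* and *Ncr1* of the NK cell list in Sensitized against Naive. These went opposite ways. *Ncam1* had 0 counts in all Sensitized samples. *Ncr1* had 0 counts in all Naive samples and 38 in Sensitized replicate 2, with 0 in the other 3 Sensitized samples. The NK cell sum there ran from 8.38 to 33.9 CPM in Sensitized and from 0.0756 to 32.7 CPM in Naive samples. *Trgc2* was higher in all 3 S+P subsets than in Sensitized samples, at 1374 CPM in S+P C4 replicate 2 and 748 CPM in S+P C7 replicate 6, and had at most 2 counts in a Sensitized sample. The rest of the gamma-delta T cell list followed it only in part. Of its 3 tested genes, *Trgc2* included, 2 were higher and 1 was lower in S+P C4 than in Sensitized. The same counts held in S+P C5, and the median log2 differences were 4.11 and 4.54. In S+P C7 1 was higher and 2 were lower than in Sensitized, with a median of -0.26. *Trdc* and *Sox13* had 0 counts in all S+P C5 samples, and the whole list summed to 1374 CPM in S+P C4 replicate 2. The myeloid markers summed to 332 CPM in Sensitized replicate 1, whose *Klrk1* was the lowest of its group at 915 CPM. The part of these genes in the values of the members was not tested.

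Per kb of annotated exon, the order of the mean levels in Sensitized samples was *Hcst* (624), *Klrd1* (314), *Klrc1* (304), *Klrk1* (154), *Klrg1* (47.9), *Klrb1c* (26.5), *Klre1* (10.3) and *Klrc2* (7.22), all in CPM per kb. *Klrd1* and *Klrc1* did not differ beyond their SDs of 75.3 and 91.8. With canonical transcript lengths *Klrk1* was at 329 CPM per kb, above *Klrc1* at 304, and *Klrc2* at 58.6 was above *Klrg1*, so the places of these genes depend on which exons are counted. In Naive samples *Hcst* (245) and *Klrd1* (158) were the only members above 3 CPM per kb of annotated exon.

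The genes whose levels followed *Klrk1* most closely over the 30 samples were *Klrc1* (Spearman's rho 0.93), *Itga1* (0.87), *Il18rap* (0.85), *Hcst* (0.83) and *Nptn* (0.81), out of 19656. Those nearest to *Klrg1* were *Cdc42ep3* (0.92), *Ccr2* (0.90), *Cyp17a1* (0.88), *Kcnj8* (0.88) and *Gm38204* (0.87). Those nearest to *Klrd1* were *Pik3r1* (0.80), *Ly6c2* (0.79), *Crybg1* (0.79), *Ly6c1* (0.78) and *Neat1* (0.76). Samples share groups, mice and depth, so these values describe likeness only.

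23 samples had both technical libraries, each from 200 cells. The median difference between the libraries was lowest for *Klrd1*, 0.26 on the log2 scale, and *Hcst*, 0.30, and highest for *Klrb1c*, 1.16. *Klrk1* differed by 0.53 in the median and by 3.52 at most, in N+P C1 replicate 3 with 8.32 and 95.3 CPM. The largest differences were 8.45 for *Klrc1*, 6.91 for *Klrb1c* and 6.40 for *Klrg1*. That of *Klrc1* was in N+P C1 replicate 2, with 2 and 516 counts, and N+P C1 replicate 3 had 12 and 256. For *Klrc2* and *Klrb1c* 4 samples each had over 3 counts in one library and none in the other. In Naive replicate 2 the counts of *Klrc1* were 112 and 0.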

How the data were processed

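RNA-Seq libraries were made with SmartSeq2, without molecular identifiers, from sorted cells and sequenced in 1 run. The study states that the cells were sorted in more than 1 independent experiment. The sample labels do not name the experiment, so it could not enter the fit. The authors trimmed reads (cutadapt 3.4), aligned them to GRCm39 (STAR 2.6.1b), removed reads mapping to several places and counted the rest (featureCounts 2.0.1), with versions from the submitters' processing notes. The deposited values are raw counts, 1 column for each library, not normalized. The strand option is not given in the sources used here. Genes were named with GENCODE M39, which held 54749 of 55359 genes. The RefSeq promoter table, on another build, was not used here.

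Technical libraries were summed, and CPM used TMM-scaled totals. edgeR 4.0.16 in R 4.3.3 (filterByExpr, minimum count 10, robust quasi-likelihood fit of 30 samples, two-sided, Benjamini-Hochberg adjustment over 19657 genes) gave the main test, where the study used DESeq2, and its thresholds were kept. DESeq2 1.42.0, RLE, no filter, other sample sets, a replicate block and leaving out each sample were alternatives. Levels, likeness and figures used Python 3.11.15. p-values of the main fit rest on a spread estimated over all 30 samples, in which subsets of the same mouse count as separate samples. A floor of 3 counts and the intervals cover counting error only. Overlap of groups is described for single genes, and the share of all genes without overlap was not computed. 4 columns carry another technical letter than their labels and were matched as the only library of their replicate and subset.

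All 8 members were named in every comparison, then listed genes past both thresholds, a few genes given as levels and the 5 genes most like 3 members. The members and lists were chosen with earlier results of these data known. Same-numbered subsets come from 1 mouse as far as the numbering shows. Deviations from group means correlated by 0.051 on average between same-numbered N+P subsets and by 0.104 to 0.171 between S+P subsets, against -0.025 to -0.017 for different numbers. ATAC-Seq and flow cytometry were not analysed here.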

Additional observations from a re-analysis of the deposited data

Results flagged for a closer look

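Of 32 sets of values (8 genes in the 4 groups with 4 to 6 samples), 3 held a sample far from the others of its group. Chance marks about 1 in 20 where values are normally distributed. CPM was not on a log scale and all 3 samples were the highest of their group, so that rate need not hold here. *Klrg1* was at 552 CPM in S+P C7 replicate 1, where the next sample held 115 CPM. *Klrb1c* was at 62.2 CPM in S+P C5 replicate 1, where the next held 13.7 CPM. *Hcst* was at 882 CPM in S+P C4 replicate 2, a sample with 8002 detected genes, where the next held 459 CPM. The change of *Klrk1* from unmated mice to C5 cells after pregnancy differed between grafted and ungrafted mice by -3.50 on the log2 scale in the test of that difference. That change includes the PD1+CD73+ gate.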

How the results depend on the processing

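No fold change of a member with an unadjusted p under 0.05 turned its direction under any alternative. Of 588 such recomputed values, 532 kept their side of the thresholds, 40 passed only under the alternative and 16 no longer passed. Counts of members past both thresholds differed between alternatives. In Sensitized against Naive (2 members) DESeq2 called 6, only the groups compared 5, the fit without the 3 samples under 9000 genes 4, and all 56 columns as labelled 1 (*Klrk1*). In S+P C4 against N+P C1 (1 member) the same first 3 gave 7, 2 and 4. In S+P C5 against N+P C5 (0) DESeq2 gave 3 and the fit without those 3 samples 1. In N+P C1 against Naive (0) DESeq2 gave 1. In N+P C5 against Naive (0) DESeq2 gave 3, no filter on low counts 1 and the fit without those 3 samples 2. In S+P C5 against Sensitized (0) only the groups compared gave 1. For the interaction (1) DESeq2 gave 3, the fit without those 3 samples 2, only the groups compared 2, and no filter, all 56 columns or an adjusted p under 0.05 gave 0. The 3 samples were in neither group of several of these comparisons. The cause of these shifts was not tested. Over all genes in Sensitized against Naive, edgeR called 30 and DESeq2 1078.

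With the replicate number as a block, Sensitized against Naive gave 1 and S+P C4 against N+P C1 gave 2 members, though these numbers mark different mice, and the interaction gave 1, *Klrb1c* in place of *Klrk1*. Between subsets of the same mice, where the numbers are paired, the block changed no call of a member. Over all genes it moved the calls from 1 to 29 in N+P C5 against N+P C1 and from 6 to 0 in S+P C5 against S+P C4. It moved them from 1 to 0 in S+P C7 against S+P C4 and from 0 to 1 in S+P C7 against S+P C5. Leaving out 1 sample at a time gave 1 to 2 members in Sensitized against Naive, 0 to 1 in S+P C5 against N+P C5, 0 to 1 in N+P C5 against Naive and 0 to 1 for the interaction. The share of *Klrc1* in Sensitized samples was 84.0% with canonical transcript lengths, an alternative chosen after seeing the data, and 97.7% with annotated exons.

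Each library came from 200 cells and 7 samples rested on 1 library, so low levels could not be told from absence beyond the floor of 3 counts, which lay between 0.0539 and 0.297 CPM.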
